A study of Mus musculus with 23 samples.

Results

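The collagen chains on the array were described across the sorted epithelial fractions of the mouse mammary gland. A gene was a member when its single symbol in the array annotation had the form Col, a type number, the letter a and a chain number, and where several probe sets carried its symbol, the one brightest on average across the 23 arrays stood for it. 42 chains of 18193 genes with a single symbol met this rule: 9 fibrillar chains (types I, II, III, V and XI), 6 basement membrane chains (type IV), Col17a1 and 26 others. 40 of the 42 passed the filter on low values, which kept 15378 genes lying above the 40th percentile of an array on at least 2 arrays. Col24a1 (0.46 to 4.02 on the log2 scale over the 23 arrays) and Col6a5 (0.30 to 3.91) did not pass and entered no test.

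The arrays came from C57BL/6 females whose digested mammary glands had been separated into cells labelled stem, luminal progenitor and mature luminal. The groups were virgins of 3 and 9 weeks, animals at days 10 and 16 of pregnancy and retired breeders, each with all 3 fractions, and day 19 of pregnancy with mature luminal cells only. Of the 16 groups, 7 had 2 arrays and 9 had 1, giving 8 stem, 7 luminal progenitor and 8 mature luminal arrays. All groups shared strain and sex, the labels named no transgene or drug, and they gave neither the sorting gates, nor the age of the retired breeders, nor whether arrays of a group came from separate animals, so that p-values measure the spread between these arrays, which may be technical.

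Collagens are secreted or membrane proteins in which chains wind into a triple helix. Fibrillar collagens form the fibres of connective tissue and are mostly made by fibroblasts. Type IV collagen forms the sheet-like network of basement membranes, on which the basal epithelial cells of the mammary ducts and alveoli rest, and Col17a1 and Col7a1 help to fasten epithelium to it.

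The fractions were compared first with markers of the cells they could hold. The mean log2 level of 8 basal markers was 9.65 to 12.59 on the stem arrays, 7.01 to 10.97 on the luminal progenitor arrays and 6.65 to 9.51 on the mature luminal arrays. The mean of 8 luminal markers was 9.72 to 11.65, 11.84 to 12.13 and 11.81 to 12.69 in the same order. In luminal markers the stem arrays lay below all others, and in basal markers the ranges of stem and luminal progenitor arrays overlapped. Markers of other cells were also present. The mean of 10 fibroblast markers was 5.97 to 8.34 on stem arrays, 4.96 to 9.32 on luminal progenitor arrays and 3.39 to 6.33 on mature luminal arrays, and it was highest on the luminal progenitor arrays of day 10 (9.32) and day 16 (9.28). The mean of 10 endothelial markers was 9.32 to 11.36 on the 4 virgin stem arrays, 6.18 to 6.94 on the 3 pregnant stem arrays and 8.40 in stem cells of retired breeders, against 4.94 to 8.10 in the 2 luminal fractions. Of the 20 markers in these lists, Clec3b was at 0 on 1 array (the 9-week stem array of replicate 1), and no other marker was at 0 on any array. Array medians lay between 4.51 and 5.47. The Gapdh 3′ probe set exceeded the 5′ one by 5.16 on the 3-week mature luminal array and by 3.77 in stem cells of retired breeders, against 0.87 to 2.72 on the other arrays.

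**Figure D1:**
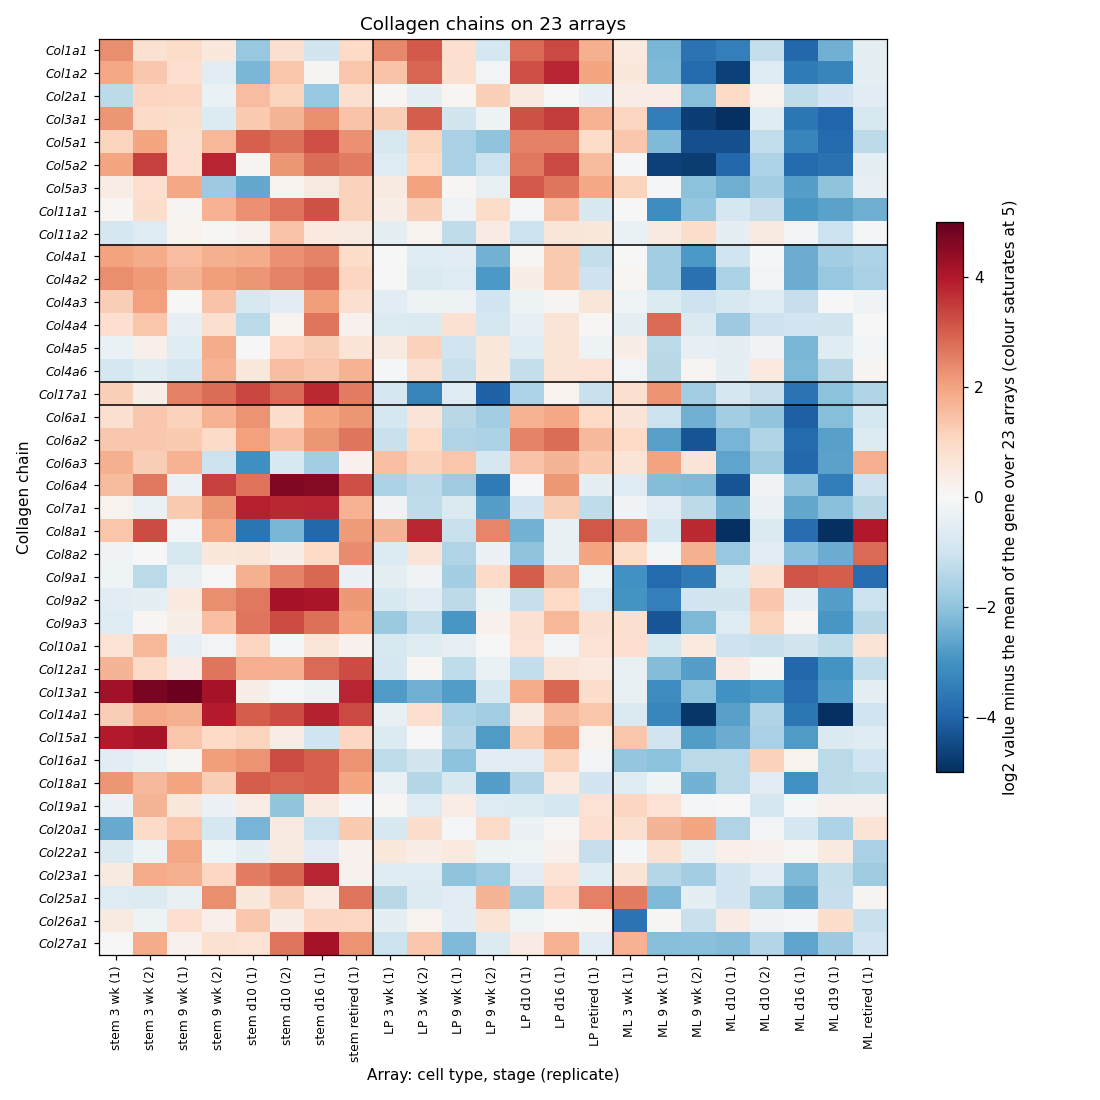
Log2 value of each of the 40 collagen chains that passed the filter (rows, in 4 groups divided by lines: fibrillar, basement membrane, Col17a1, others) on 23 arrays (columns, by cell type and stage, with the replicate number in brackets), minus the mean of the gene. Most rows are red in the stem columns and blue in the mature luminal columns, while Col1a1, Col1a2, Col3a1 and Col5a3 are also red on the day 10 and day 16 luminal progenitor arrays.

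Averaged over 5 stages, 12 of the 40 chains were lower in the luminal progenitor than in the stem fraction and 0 were higher, at an adjusted p under 0.05 over all genes (limma). Of the 15378 genes tested, 3.60% were lower, 0.780% higher and 4.38% called in either direction. The median difference of the 40 chains was -0.99 on the log2 scale, and that of all genes -0.04. Against mature luminal cells the count was larger: 25 of the 40 were lower than in stem cells and 0 higher, where 6.78% of all genes were lower, 1.56% higher and 8.34% called in either direction. The median difference there was -2.40 for the chains and 0.03 for all genes. By group, the chains lower in luminal progenitors were 0 of 9 fibrillar, 2 of 6 basement membrane, Col17a1 and 9 of 24 others, and those lower in mature luminal cells were 5 of 9, 3 of 6, Col17a1 and 16 of 24. A fit with the replicate number of the titles as a block, in which the 8 unnumbered arrays were set with those titled replicate 2, called 17 lower and 1 higher in luminal progenitors and 29 lower in mature luminal cells, where 9.62% of all genes were lower and 4.81% higher in the first comparison (14.4% in all), and 12.9% lower and 6.71% higher in the second (19.7% in all). The 1 chain called higher was Col1a1.

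**Figure D2:**
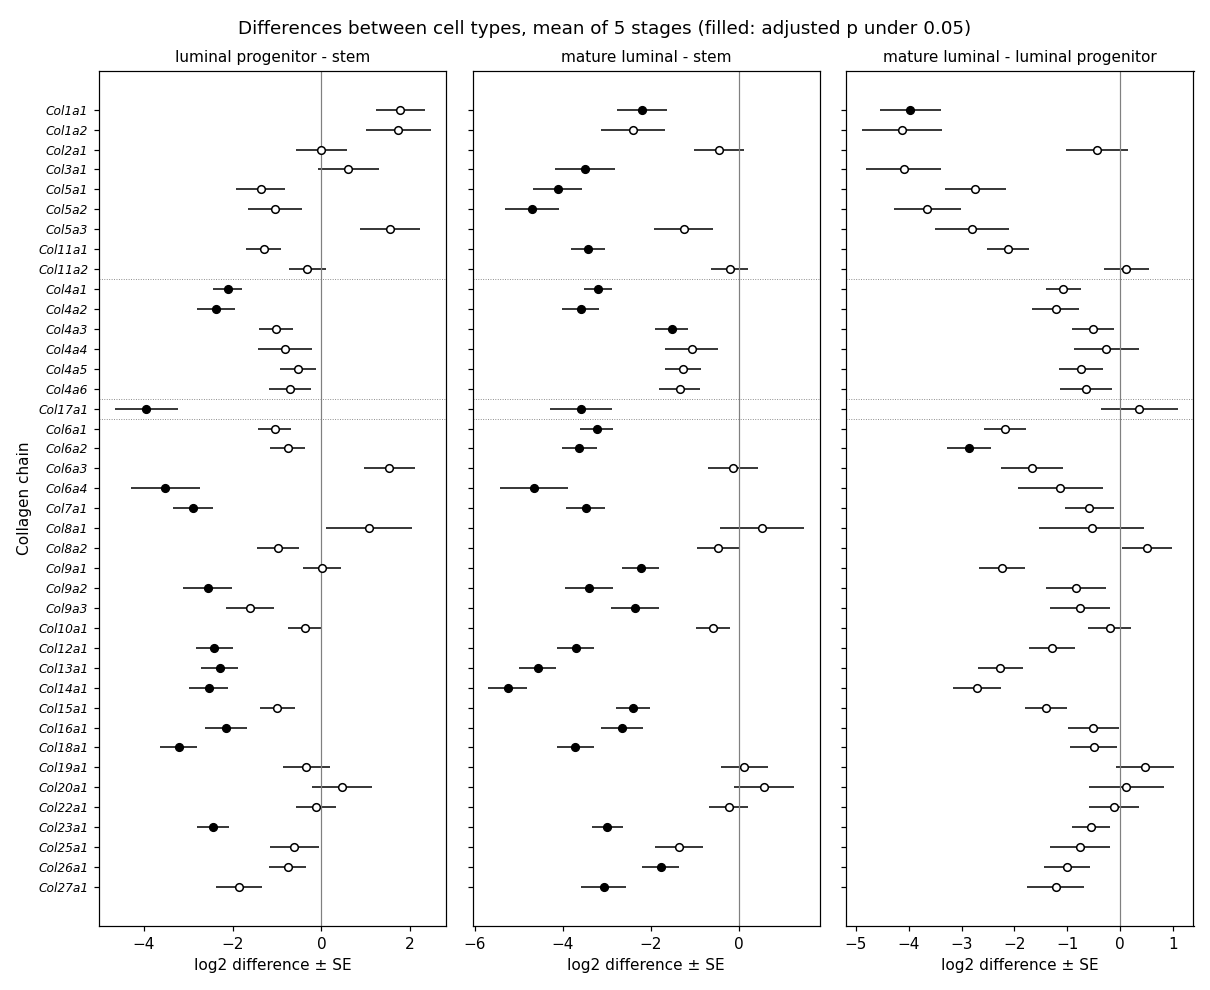
Log2 difference with its standard error for each of 40 collagen chains (rows) in luminal progenitor minus stem, mature luminal minus stem and mature luminal minus luminal progenitor cells, each the mean of 5 stages. Filled points passed an adjusted p under 0.05: 12, 25 and 2 chains, all of them to the left of 0.

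Col4a1 and Col4a2, which together form the network found in all basement membranes, were lower in both luminal fractions. Col4a5 and Col4a6, chains of a more restricted network, did not pass. The genes of both pairs lie head to head on one chromosome and are transcribed in opposite directions, so the sequence around their starts is shown first. In RefSeq's promoter windows (build GRCm38.p6, 250 bases before and 50 after the start) those of Col4a1 (chr8:11312777-11313076, minus strand) and Col4a2 (chr8:11312555-11312854, plus strand) shared 78 bases, with the starts 21 bases apart. Capitals mark the shared bases, which read as reverse complements of each other on the 2 strands.

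Col4a1: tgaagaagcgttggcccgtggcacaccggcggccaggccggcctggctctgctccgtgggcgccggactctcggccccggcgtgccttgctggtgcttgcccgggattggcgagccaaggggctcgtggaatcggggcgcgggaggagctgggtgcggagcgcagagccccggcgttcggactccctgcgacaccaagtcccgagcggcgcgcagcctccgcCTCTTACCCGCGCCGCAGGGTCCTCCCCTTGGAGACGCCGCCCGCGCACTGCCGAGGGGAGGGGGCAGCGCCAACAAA

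Col4a2: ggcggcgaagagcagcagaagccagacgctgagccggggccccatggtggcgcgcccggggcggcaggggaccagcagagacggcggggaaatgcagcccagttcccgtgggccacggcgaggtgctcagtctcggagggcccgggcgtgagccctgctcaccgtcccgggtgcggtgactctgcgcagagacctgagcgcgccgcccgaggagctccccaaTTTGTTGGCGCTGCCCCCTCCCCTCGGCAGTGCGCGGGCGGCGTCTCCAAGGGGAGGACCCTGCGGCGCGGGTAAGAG

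The windows of Col4a5 (chrX:141475169-141475468, plus strand) and Col4a6 (chrX:141474027-141474326, minus strand) shared 0 bases, with the starts 1343 bases apart. Capitals mark GGGCGG, the core of the GC box, on either strand.

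Col4a5: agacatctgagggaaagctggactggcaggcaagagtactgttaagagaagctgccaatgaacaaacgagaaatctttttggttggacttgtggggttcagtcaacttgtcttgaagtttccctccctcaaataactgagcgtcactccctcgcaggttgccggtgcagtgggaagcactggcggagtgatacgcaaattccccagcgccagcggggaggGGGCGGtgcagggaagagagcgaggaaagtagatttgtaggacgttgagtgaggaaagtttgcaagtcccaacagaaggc

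Col4a6: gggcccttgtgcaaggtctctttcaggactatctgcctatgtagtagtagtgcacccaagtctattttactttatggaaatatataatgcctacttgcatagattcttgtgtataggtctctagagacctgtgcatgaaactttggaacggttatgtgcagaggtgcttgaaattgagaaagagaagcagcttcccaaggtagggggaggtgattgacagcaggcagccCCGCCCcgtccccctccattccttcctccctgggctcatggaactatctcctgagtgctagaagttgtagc

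GGGCGG or its complement CCGCCC occurred in 22 of 36 collagen windows (61.1%), in 4 of 5 type IV and 5 of 6 fibrillar windows, and in 35.7% of all 32851 windows. CCAAT or ATTGG occurred in 13 of the 36 (36.1%) and in 37.4% of all windows, and TATAAA or TTTATA in 5 of the 36 (13.9%) and 13.6% of all. The 36 windows belonged to 33 of the 42 chains, some with more than 1 window, and the windows of Col4a1 and Col4a2 are partly the same bases. These matches describe the letters only.

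Col4a1 had log2 values of 11.65, 12.59 and 13.21 as the lowest, median and highest of the 8 stem arrays. On the 7 luminal progenitor arrays these were 8.37, 10.21 and 12.05, and on the 8 mature luminal arrays 7.87, 9.09 and 10.70. Every stem array lay above every mature luminal array, while the day 16 luminal progenitor array (12.05) reached into the stem range. The difference was -2.11 ± 0.32 (SE) for luminal progenitors (adjusted p = 0.00675) and -3.19 ± 0.32 for mature luminal cells (adjusted p = 0.000332). Because these are bulk fractions, fewer cells of a type and less RNA per cell cannot be told apart in this or any later result. Endothelial cells also make type IV collagen. Against the stem fraction, 3.60% of all genes were lower in luminal progenitors and 6.78% in the mature luminal fraction. Of the 10 endothelial markers, 4 and 7 were lower in the same order. Their part in the result was not tested. The stem arrays of day 10 (12.59 and 13.03) and day 16 (13.21) had Col4a1 at least as high as the 9-week stem arrays (12.26 and 12.49), while their mean endothelial level was 6.18 to 6.94 against 9.32 and 9.80.

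Col4a2 followed Col4a1 array by array. Its stem values ran from 11.47 to 13.17 (median 12.58), its luminal progenitor values from 7.52 to 11.71 (median 9.74) and its mature luminal values from 6.65 to 10.50 (median 8.71). The differences from stem cells were -2.37 ± 0.42 (adjusted p = 0.0126) and -3.59 ± 0.42 (adjusted p = 0.000572). The transcribed regions of Col4a1 and Col4a2 overlap in RefSeq's annotation. Each of the 4 differences of Col4a1 and Col4a2 kept its call in all 35 other settings.

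Col4a5 overlapped far more between fractions. Its values were 10.28 to 12.72 (median 11.35) on stem arrays, 9.87 to 12.03 (median 11.31) on luminal progenitor arrays and 8.58 to 11.22 (median 10.41) on mature luminal arrays. The differences from stem cells were -0.53 ± 0.41 (adjusted p = 0.535) and -1.27 ± 0.41 (adjusted p = 0.0843). Col4a6, its neighbour, had 8.79 to 11.44 (median 10.63), 8.51 to 10.47 (median 10.22) and 7.42 to 10.17 (median 9.38), with differences of -0.70 ± 0.47 (adjusted p = 0.469) and -1.34 ± 0.47 (adjusted p = 0.114). In the fit with the replicate block the mature luminal difference passed for both, at -1.37 for Col4a5 (adjusted p = 0.00132) and -1.47 for Col4a6 (adjusted p = 0.00182). Whether these chains differ from Col4a1 and Col4a2 was not tested.

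Col4a3 and Col4a4 join Col4a5 in the network of the kidney filter and a few other tissues. Col4a3 had 3.17 to 6.07 in stem cells, 3.02 to 4.57 in luminal progenitors and 2.84 to 3.98 in mature luminal cells, and was lower in the last by -1.52 ± 0.38 (adjusted p = 0.03). That call was lost when any 1 of 7 arrays was left out (the 3-week stem array of replicate 2, the day 16 stem array, and the mature luminal arrays of 3 weeks, of 9 weeks replicate 2, of day 10 and of day 16), with adjusted p up to 0.166. Col4a4 had 2.62 to 6.63, 3.08 to 4.74 and 2.17 to 6.80 and passed no comparison.

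Col17a1 encodes a membrane-spanning collagen of hemidesmosomes, the junctions that anchor basal epithelial cells to the basement membrane. It stood at 7.87, 10.23 and 11.32 (lowest, median and highest) on stem arrays, at 3.51, 6.46 and 7.73 on luminal progenitor arrays and at 3.89, 6.24 and 9.83 on mature luminal arrays. No luminal progenitor array reached the lowest stem array. Col17a1 and Col18a1 were the 2 of 40 chains for which this held, and it held for 0.793% of all genes tested. The difference was -3.94 ± 0.71 for luminal progenitors (adjusted p = 0.0129) and -3.58 ± 0.71 for mature luminal cells (adjusted p = 0.00908). By stage, the first was negative at all 5 stages (median -3.66), while the second was 0.05 at 3 weeks, -2.38 at 9 weeks, -4.09 at day 10, -7.43 at day 16 and -4.06 in retired breeders. Among mature luminal arrays the 2 arrays of 9-week virgins were far apart, at 9.83 and 5.85. Without the day 16 stem array or the day 16 mature luminal array the mature luminal difference no longer passed (adjusted p up to 0.0778 with 1 array left out).

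Col7a1, the anchoring fibril collagen that links the basement membrane to the tissue below, had 8.15 and 7.63 in 3-week stem cells, 9.27 and 10.17 at 9 weeks, 11.86 and 11.72 at day 10, 11.79 at day 16 and 9.71 in retired breeders. All 3 pregnant stem arrays exceeded all other stem arrays. The pregnancy difference from 9 weeks in stem cells was 2.07 ± 0.76 and did not pass (adjusted p = 0.325). Over all stages Col7a1 was lower in luminal progenitors, at 5.23 to 9.18 (-2.90 ± 0.45, adjusted p = 0.00675), and in mature luminal cells, at 5.41 to 7.81 (-3.48 ± 0.45, adjusted p = 0.000774).

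Of 7 other genes of the hemidesmosome and its laminin, 4 were lower in luminal progenitors, where 3.60% of all genes were lower. The replicate block called 6 lower there, where 9.62% of all genes were lower. In mature luminal cells 3 were lower (6.78% of all genes), and 0 of the 7 were higher in either fraction. Their median differences were -1.23 and -0.62. Lama3 and Lamb3, chains of the laminin to which hemidesmosomes bind, differed by -2.51 ± 0.37 (adjusted p = 0.00675) and -2.36 ± 0.45 (adjusted p = 0.0151) in luminal progenitors. Dst, whose epithelial product links hemidesmosomes to keratin filaments, differed by -0.86 ± 0.22 (adjusted p = 0.0459), and Cd151, a tetraspanin of these junctions, by -0.85 ± 0.17 (adjusted p = 0.0175).

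**Figure D3:**
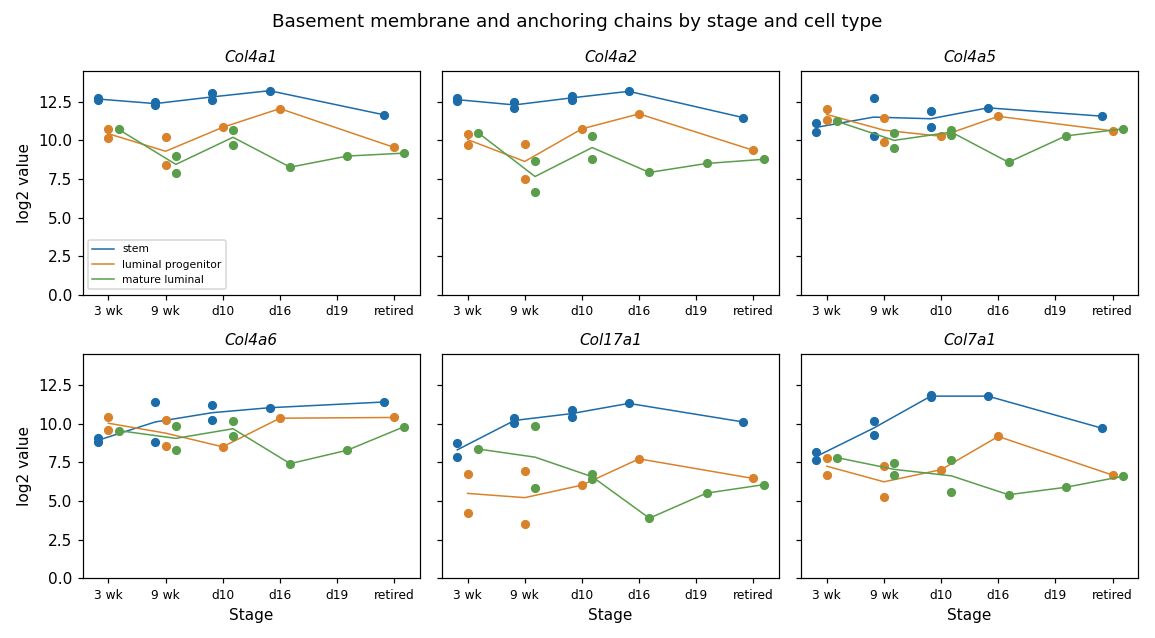
Log2 value on each array (points) and group mean (lines) of Col4a1, Col4a2, Col4a5, Col4a6, Col17a1 and Col7a1 by stage (x axis) in stem, luminal progenitor and mature luminal cells. Col4a1 and Col4a2 stem points lie above all mature luminal points, the 3 fractions overlap in Col4a5 and Col4a6, and the pregnant stem points of Col7a1 lie at 11.72 to 11.86.

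Of the 9 fibrillar chains, 0 passed between luminal progenitors and stem cells by limma. An unadjusted p under 0.05 was reached by 5, and no share of all genes is given for it. The replicate block called Col11a1 (-1.38, adjusted p = 0.00639) and Col5a2 (-1.20, adjusted p = 0.043) lower and Col1a1 higher. Against stem cells, 5 were lower in mature luminal cells: Col1a1, Col3a1, Col5a1, Col5a2 and Col11a1. Col1a1 and Col1a2, the chains of type I collagen, had their highest values in luminal progenitors.

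Col1a1 in luminal progenitors was 10.69 and 11.36 at 3 weeks, 9.15 and 7.43 at 9 weeks, 11.14 at day 10, 11.61 at day 16 and 10.09 in retired breeders. In stem cells it was 10.62 and 9.06, 9.20 and 8.83, 6.41 and 9.10 (day 10), 7.36 (day 16) and 9.30. The mature luminal values were 8.77 at 3 weeks, 6.03 and 4.59 at 9 weeks, 4.89 and 7.12 at day 10, 4.37 at day 16, 5.88 at day 19 and 7.83 in retired breeders. Luminal progenitors were thus highest at most stages and mature luminal cells lowest, with overlap between neighbours. The luminal progenitor difference from stem cells, 1.78 ± 0.56, did not pass (adjusted p = 0.101), but did with the replicate block (1.77, adjusted p = 0.0427). The mature luminal difference from stem cells was -2.20 ± 0.56 (adjusted p = 0.0307), and leaving out any 1 of 5 arrays ended that call (the 3-week stem array of replicate 1, the day 16 stem array, and the mature luminal arrays of 9 weeks replicate 2, day 10 replicate 1 and day 16, adjusted p up to 0.085).

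Col1a2 was parallel. In luminal progenitors it ran from 7.70 to 11.63 (median 9.80), in stem cells from 5.54 to 9.77 (median 8.92) and in mature luminal cells from 3.16 to 8.36 (median 5.07). Its differences from stem cells, 1.73 ± 0.73 and -2.41 ± 0.73, did not pass (adjusted p = 0.228 and 0.0676), and the second passed with the replicate block (-2.47, adjusted p = 0.0226). The 2 highest of all 23 arrays for Col1a2 and for Col3a1 were the luminal progenitor arrays of day 16 and day 10, and the same 2 arrays, in the other order, were the highest for Col5a3.

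Col3a1, the chain of type III collagen, which accompanies type I in soft tissues, had 8.70, 10.77 and 11.72 (lowest, median and highest) in stem cells, 8.49, 11.14 and 12.89 in luminal progenitors and 3.87, 5.85 and 10.45 in mature luminal cells. The mature luminal difference from stem cells was -3.49 ± 0.68 (adjusted p = 0.00837) and kept its call in all 35 other settings. The luminal progenitor difference was 0.61 ± 0.68 (adjusted p = 0.689).

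Type V collagen is a minor component that starts type I fibrils. Col5a1 had 8.01 to 10.40 (median 9.32) in stem cells, 5.18 to 9.70 (median 8.12) in luminal progenitors and 2.80 to 8.52 (median 4.43) in mature luminal cells, where it was lower by -4.11 ± 0.56 (adjusted p = 0.00107). Col5a2 had 7.18 to 10.83 (median 9.46), 5.41 to 10.34 (median 8.05) and 2.29 to 6.96 (median 3.25), and no mature luminal array reached the lowest stem array (-4.69 ± 0.61, adjusted p = 0.000813). Both calls held in all 35 other settings. Col5a3 had 2.60 to 7.10 (median 5.58) in stem cells, 4.79 to 8.26 (median 7.12) in luminal progenitors and 2.42 to 6.29 (median 3.33) in mature luminal cells, and passed neither comparison with stem cells (adjusted p = 0.241 and 0.31).

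Col11a1, a chain of type XI collagen better known from cartilage, was 7.17 to 10.28 in stem cells, with the 3 highest values on the pregnant arrays (9.36, 9.80 and 10.28). It was 6.33 to 8.54 in luminal progenitors and 3.97 to 7.05 in mature luminal cells, and no mature luminal array reached the stem range (-3.43 ± 0.39, adjusted p = 0.000568). Col2a1 (1.12 to 4.77 over all arrays) and Col11a2 (2.79 to 5.47) were low in every fraction, and their differences between fractions did not pass.

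The comparison of the luminal fractions gave 2 of 40 chains lower in mature luminal cells than in luminal progenitors and 0 higher, where 0.117% of all genes were lower, 0.00650% higher and 0.124% called in all. These were Col1a1 (-3.97 ± 0.57, adjusted p = 0.0252) and Col6a2 (-2.86 ± 0.41, adjusted p = 0.0246). With the replicate block 11 chains were lower, adding Col1a2, Col3a1, Col5a1, Col5a2, Col6a1, Col9a1, Col11a1, Col13a1 and Col14a1, where 0.923% of all genes were lower and 0.0715% higher (0.995% in all). The count was 0 without the day 10 luminal progenitor array, 0 without the day 16 luminal progenitor array, 0 without the day 16 mature luminal array and 10 without the 3-week mature luminal array. By stage the Col6a2 difference was 1.06 at 3 weeks and -6.68 to -1.97 at the 4 others. Without both luminal progenitor arrays of pregnancy the differences were -2.50 for Col1a1 (adjusted p = 0.741) and -1.09 for Col6a2 (adjusted p = 0.953).

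The fibroblast markers were compared in the same way. Of 10 markers, 0 passed between luminal progenitors and stem cells (median difference 1.22), where 4.38% of all genes were called. In mature luminal cells 4 were lower than in stem cells (median -1.89), where 6.78% of all genes were lower. Against luminal progenitors 3 were lower there (median -2.89), where 0.117% of all genes were lower. The medians of the 9 fibrillar chains were -0.00, -2.41 and -2.80 in the same order. The luminal progenitor arrays of day 10 and day 16, which held the highest Col1a2 and Col3a1 values, had Dpt at 11.43 and 10.87, Lum at 9.92 and 10.91 and Mfap5 at 10.76 and 10.61. The 9-week luminal progenitor arrays had Dpt at 6.91 and 8.31, Lum at 6.99 and 7.44 and Mfap5 at 6.18 and 7.32. Fbln1, alone of the 10 markers, overlapped, at 4.62 on day 10 and 5.74 on day 16 against 4.79 and 2.94 at 9 weeks. The part of fibroblast RNA in the fibrillar values was not tested.

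**Figure D4:**
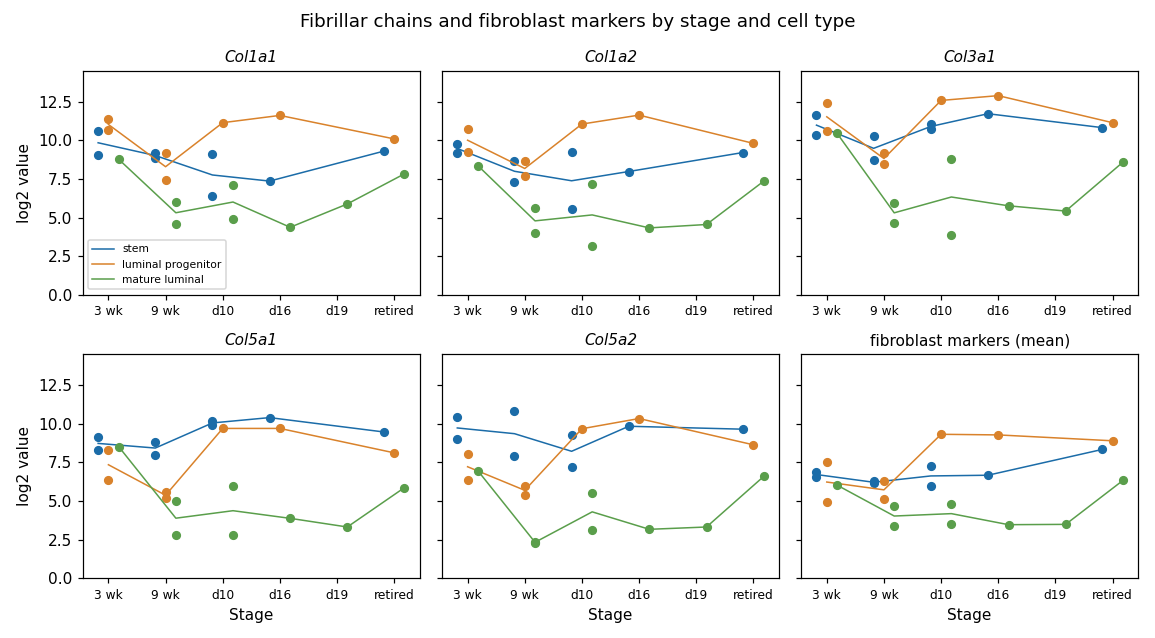
Log2 value on each array (points) and group mean (lines) of Col1a1, Col1a2, Col3a1, Col5a1 and Col5a2, with the mean of 10 fibroblast markers, by stage in 3 cell types. Luminal progenitor points of days 10 and 16 lie above those of 9 weeks in all 5 chain panels and in the marker panel (9.32 and 9.28), and mature luminal means are the lowest at most stages.

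Type VI collagen forms beaded filaments around cells and next to basement membranes, from Col6a1, Col6a2 and one more chain. Col6a1 had 9.05 to 10.49 in stem cells, 6.49 to 10.19 in luminal progenitors and 4.15 to 8.90 in mature luminal cells (-3.23 ± 0.37 from stem cells, adjusted p = 0.000568). Col6a2 had 9.00 to 10.73, 6.47 to 10.86 and 3.73 to 9.06 (-3.62 ± 0.40, adjusted p = 0.000509). Both were highest among luminal progenitor arrays on those of day 16 and day 10, as were the fibroblast markers. Col6a4, a relative of Col6a3, was 4.03 to 8.94 in stem cells, 0.82 to 6.50 in luminal progenitors (-3.51 ± 0.77, adjusted p = 0.0264, lost without the 3-week stem array of replicate 2, the 3-week luminal progenitor array of replicate 1 or the day 10 luminal progenitor array, adjusted p up to 0.0615) and 0 to 4.15 in mature luminal cells (-4.65 ± 0.77, adjusted p = 0.00309). Col6a3, the usual partner of Col6a1 and Col6a2, differed between mature luminal and stem cells by -0.13 ± 0.57 (adjusted p = 0.93) and is taken up below with stage.

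Col18a1, a basement membrane collagen whose end fragment is endostatin, was 10.50 to 12.30 in stem cells, 6.50 to 9.76 in luminal progenitors and 6.25 to 9.03 in mature luminal cells. No luminal array reached the lowest stem array, and the differences were -3.21 ± 0.42 (adjusted p = 0.00674) and -3.71 ± 0.42 (adjusted p = 0.000568), both called in all 35 other settings. Its stem values at day 10 (12.30 and 12.17) and day 16 (12.24) lay above the other stem arrays (10.50 to 11.45). The mean endothelial level on these pregnant arrays was the lowest of the stem arrays. The part of endothelial RNA in the Col18a1 values was not tested.

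Col14a1, a fibril-associated collagen, had the largest difference of all 40 chains between mature luminal and stem cells. It was 8.72 to 11.43 in stem cells, 5.76 to 9.13 in luminal progenitors and 2.20 to 6.78 in mature luminal cells, so that mature luminal and stem arrays did not overlap. The differences from stem cells were -2.54 ± 0.44 (adjusted p = 0.0115) and -5.25 ± 0.44 (adjusted p = 0.00027). Col12a1, of the same family, was 6.30 to 9.16, 4.63 to 6.51 and 1.96 to 6.29 (-2.41 ± 0.42, adjusted p = 0.0115, and -3.70 ± 0.42, adjusted p = 0.000568). Another of its probe sets gave -1.47 and -1.91, and one more gave 0.37 and -1.33. Col16a1, also fibril-associated, was 8.76 to 12.54, 7.24 to 10.38 and 7.23 to 10.42 (-2.15 ± 0.47, adjusted p = 0.0262, lost without the same 3 arrays as Col6a4, adjusted p up to 0.0979, and -2.65 ± 0.47, adjusted p = 0.00458).

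Of the 40 chains, 9 had every stem array above every mature luminal array: Col4a1, Col4a2, Col5a2, Col6a1, Col11a1, Col12a1, Col13a1, Col14a1 and Col18a1. Among all genes tested 0.988% did so. The same was true of 0 chains between luminal progenitors and mature luminal cells, against 0.0130% of all genes.

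Col23a1, a membrane-spanning collagen, was 5.69 to 9.30 in stem cells, 3.47 to 6.22 in luminal progenitors (-2.44 ± 0.35, adjusted p = 0.00674) and 3.24 to 6.17 in mature luminal cells (-2.99 ± 0.35, adjusted p = 0.000568). Col27a1, a fibril-forming chain of cartilage, was 7.07 to 11.20, 4.84 to 8.80 and 4.42 to 8.77, and was lower in mature luminal cells (-3.07 ± 0.52, adjusted p = 0.00357), a call lost without the day 16 stem or the day 16 mature luminal array (adjusted p up to 0.0527). By stage this difference was 0.79 at 3 weeks and -6.78 to -2.59 at the 4 others. The luminal progenitor difference of Col27a1, -1.85 ± 0.52, did not pass (adjusted p = 0.0702), but did with the replicate block (-1.98, adjusted p = 0.00203). Col15a1, a basement membrane collagen related to Col18a1, was 6.63 to 11.72, 4.77 to 9.72 and 4.77 to 8.99, and was lower in mature luminal cells by -2.40 ± 0.39 (adjusted p = 0.00276). Col26a1 was low throughout (3.42 to 5.05, 3.12 to 4.38 and 0 to 4.56). Its call in mature luminal cells (-1.77 ± 0.42, adjusted p = 0.0234) was lost without the 3-week mature luminal array, where it was listed at 0 (-1.26, adjusted p = 0.136).

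The enzymes and partners that make and hold collagen were read from lists drawn up by role. For all of these lists, 3.60% of all genes were lower and 0.780% higher in luminal progenitors than in stem cells. In mature luminal cells 6.78% were lower and 1.56% higher. Of 14 hydroxylases, glycosyltransferases and their partners, 4 were lower in luminal progenitors and 6 in mature luminal cells than in stem cells, and 0 higher. The replicate block called 9 of the 14 lower in luminal progenitors, where 9.62% of all genes were lower. P3h1 and Crtap, which together modify prolines of the chains in the endoplasmic reticulum, differed by -2.24 ± 0.30 (adjusted p = 0.00674) and -1.42 ± 0.29 (adjusted p = 0.0213) in luminal progenitors and by -3.05 ± 0.30 (adjusted p = 0.000332) and -1.74 ± 0.29 (adjusted p = 0.00355) in mature luminal cells. P4ha1, a prolyl 4-hydroxylase subunit, differed by -1.83 ± 0.30 (adjusted p = 0.00833) and -2.32 ± 0.30 (adjusted p = 0.000774). Serpinh1, the collagen chaperone HSP47, differed by -1.82 ± 0.30 (adjusted p = 0.00876) and -2.43 ± 0.30 (adjusted p = 0.000685). Of 5 genes for chaperones and export it was the 1 lower in luminal progenitors, and with Sparc, a collagen-binding matrix protein (-2.98 ± 0.41, adjusted p = 0.00113), 1 of 2 in mature luminal cells.

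Of 5 genes for processing of the chain ends, Bmp1, which trims the C-terminal end, was lower in both luminal fractions (-1.36 ± 0.28, adjusted p = 0.0213, and -1.34 ± 0.28, adjusted p = 0.0127). Pcolce2, an enhancer of Bmp1, was higher in luminal progenitors than in stem cells (2.27 ± 0.54, adjusted p = 0.0372), and Pcolce, its relative, was lower in mature luminal cells (-2.02 ± 0.37, adjusted p = 0.00545). Of 4 lysyl oxidases, which crosslink collagen, 0 passed in luminal progenitors and 2 were lower in mature luminal cells, Loxl3 (-3.72 ± 0.71, adjusted p = 0.0072) and Loxl1 (-3.04 ± 0.73, adjusted p = 0.0235). Of 6 collagen receptors 0 passed in luminal progenitors, and the integrin chain Itga1 (-4.02 ± 0.83, adjusted p = 0.0118) and the receptor kinase Ddr2 (-2.31 ± 0.52, adjusted p = 0.0172) were lower in mature luminal cells.

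Stage was read next, with days 10 and 16 of pregnancy averaged and set against 9-week virgins over the 3 cell types. 6 of the 40 chains rose and 1 fell, where 3.77% of all genes rose, 3.36% fell and 7.13% were called in all. The median was 0.63 for the chains and 0.10 for all genes. The chains that rose were Col9a1, Col9a3, Col6a2, Col5a1, Col4a1 and Col23a1, and Col8a1 fell. The replicate block gave 12 rises and 2 falls, where 8.48% of all genes rose, 7.15% fell and 15.6% were called. The number called was 3 without any 1 of the 3 stem arrays of pregnancy and 10 without the day 10 mature luminal array of replicate 1.

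Col9a1, a chain of the fibril-associated type IX collagen known from cartilage, rose with pregnancy, also in mature luminal cells alone. Its mature luminal values were 6.00 at 3 weeks, 5.15 and 5.50 at 9 weeks, 8.37 and 9.80 at day 10, 12.19 at day 16, 12.08 at day 19 and 5.22 in retired breeders. In stem cells it was 8.83 and 7.70, 8.69 and 9.04, 10.82 and 11.51, 11.92 at day 16 and 8.74 in retired breeders. In luminal progenitors it was 8.61 and 8.88, 7.36 and 9.99, 12.06, 10.68 and 8.84. In all 3 fractions every array of days 10 and 16 lay above every 9-week array, and the retired breeder arrays stood within the range of the virgins. The mean rise was 3.56 ± 0.43 (adjusted p = 0.000763), called in all 35 other settings. In mature luminal cells alone it was 5.31 ± 0.73 (adjusted p = 0.00345), lost only without the day 16 array among the 23 arrays left out in turn (adjusted p = 0.0712), and in stem cells and luminal progenitors it was 2.68 ± 0.73 (adjusted p = 0.202) and 2.70 ± 0.78 (adjusted p = 0.194). A second, dimmer probe set of the gene gave 3.83 over the 3 cell types and 5.19 in mature luminal cells. Against stem cells over all stages, Col9a1 was lower in mature luminal cells (-2.23 ± 0.43, adjusted p = 0.00739), but by -0.60 for the second probe set. By stage the difference of the brighter probe set was -3.54 to -2.08 except at day 16, where it was 0.27.

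RefSeq lists 2 promoter windows for Col9a1 on the plus strand, chr1:24177360-24177659 and chr1:24194953-24195252 (GRCm38.p6). They are shown because Col9a1 had the largest rise of the 6 chains, and because the array values do not say from which start its transcripts came. Capitals mark CCAAT on either strand, which occurred in the second window only.

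Col9a1, upstream start: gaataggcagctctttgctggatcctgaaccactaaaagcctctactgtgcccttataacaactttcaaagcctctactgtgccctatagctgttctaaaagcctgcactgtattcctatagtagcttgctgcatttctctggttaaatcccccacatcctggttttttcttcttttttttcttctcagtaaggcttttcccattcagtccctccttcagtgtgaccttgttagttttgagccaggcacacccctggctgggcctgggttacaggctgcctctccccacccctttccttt

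Col9a1, downstream start: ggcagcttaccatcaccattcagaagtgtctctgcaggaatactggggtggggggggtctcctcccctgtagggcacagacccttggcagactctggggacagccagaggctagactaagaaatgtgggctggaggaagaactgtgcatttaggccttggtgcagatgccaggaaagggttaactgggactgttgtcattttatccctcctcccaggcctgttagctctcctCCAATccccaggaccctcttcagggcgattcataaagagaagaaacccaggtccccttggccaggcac

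The other chains of type IX collagen are Col9a2 and Col9a3. Col9a3 was 9.62 in 3-week and 4.54 and 6.55 in 9-week mature luminal cells, 8.18 and 9.90 at day 10, 8.92 at day 16, 5.88 at day 19 and 7.43 in retired breeders. In stem cells it was 8.18 and 8.91 at 3 weeks, 9.10 and 10.31 at 9 weeks, 11.50 and 12.06 at day 10, 11.55 at day 16 and 10.80 in retired breeders. Luminal progenitors had 6.94 and 7.60 at 3 weeks, 5.91 and 9.02 at 9 weeks, 9.57 at day 10, 10.47 at day 16 and 9.60 in retired breeders. All pregnant arrays of days 10 and 16 lay above the 9-week arrays of their cell type. The rise over the 3 cell types was 2.65 ± 0.55 (adjusted p = 0.0147). The day 19 value (5.88) lay between the 9-week arrays. Col9a2 was 6.02 to 10.70 (median 8.80) in stem cells, 5.26 to 7.54 (median 5.89) in luminal progenitors and 3.14 to 7.91 (median 5.53) in mature luminal cells. In 9-week stem cells it was 7.04 and 8.88, and on the pregnant stem arrays 9.17, 10.70 and 10.62. Its pregnancy difference of 1.70 ± 0.55 did not pass (adjusted p = 0.0842) but did with the replicate block (1.25, adjusted p = 0.0377). Across fractions, Col9a2 was lower in luminal progenitors (-2.56 ± 0.55, adjusted p = 0.0245, lost without the 3-week stem array of replicate 2 or the day 10 luminal progenitor array, adjusted p up to 0.113) and mature luminal cells (-3.40 ± 0.55, adjusted p = 0.0027), and Col9a3 in mature luminal cells (-2.36 ± 0.54, adjusted p = 0.0191, with 1.07 at 3 weeks and -4.16 to -2.63 at the other stages). The replicate block also called Col9a3 lower in luminal progenitors (-1.74, adjusted p = 0.00315, against -1.60 ± 0.54 and adjusted p = 0.128).

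Col8a1, a short-chain collagen of endothelial and other basement membranes, fell. In stem cells it was 8.15 and 10.02 at 3 weeks, 6.61 and 8.69 at 9 weeks, 3.10 and 4.49 at day 10, 2.84 at day 16 and 8.89 in retired breeders. In mature luminal cells it was 9.11, 5.87 and 10.50, 1.75 and 6.04, 2.95, 1.24 at day 19 and 10.76 in retired breeders. Luminal progenitors had 8.47 and 10.55, 5.66 and 9.22, 4.41, 6.38 and 9.86. The fall over the 3 cell types was -3.71 ± 0.97 (adjusted p = 0.0399), lost when any 1 of 12 arrays was left out (adjusted p up to 0.104). The 2 dimmer probe sets gave -1.65 and -2.04. With the replicate block the fall was called within stem cells (-5.04, adjusted p = 0.0054) and within mature luminal cells (-5.47, adjusted p = 0.000704).

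For the other 4 chains that rose, the luminal progenitor values are given by array, after the differences within the other fractions. In stem cells the difference was 0.87 for Col6a2, 1.80 for Col5a1, 0.64 for Col4a1 and 1.86 for Col23a1. In mature luminal cells it was 0.63, 0.24, 0.79 and 0.09 in the same order. None of these differences passed within its fraction. In all 4 chains every stem array of days 10 and 16 lay above both 9-week stem arrays. Col6a2 went from 6.55 and 6.47 at 9 weeks to 10.54 at day 10 and 10.86 at day 16 in luminal progenitors, and its mean rise was 1.90 ± 0.40 (adjusted p = 0.0161). Col5a1 went from 5.57 and 5.18 to 9.70 and 9.70 there, with a mean rise of 2.12 ± 0.57 (adjusted p = 0.0458). Col4a1 went from 10.21 and 8.37 to 10.84 and 12.05 (mean rise 1.19 ± 0.32, adjusted p = 0.0471) and Col23a1 from 3.47 and 3.71 to 4.96 and 6.22 (mean rise 1.32 ± 0.35, adjusted p = 0.0437). In pregnant against 9-week luminal progenitors the median difference was 3.37 for fibroblast and 3.19 for basal markers. It was 2.72 for leukocyte, 2.50 for pericyte, 1.59 for endothelial and -0.60 for luminal markers, and 0.25 for all genes. The part of any of these cell types in the rises was not tested. These pregnant arrays are the ones with the highest fibroblast markers. Without both of them the mean over stem and mature luminal cells was 0.75 for Col6a2 (adjusted p = 0.455), 1.02 for Col5a1 (adjusted p = 0.475), 0.71 for Col4a1 (adjusted p = 0.366) and 0.97 for Col23a1 (adjusted p = 0.244). The calls of Col5a1, Col4a1 and Col23a1 were also lost on leaving out any 1 of 14, 14 and 13 of the 23 arrays, with adjusted p up to 0.12.

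Within luminal progenitors alone 0 of 40 chains passed between pregnancy and 9-week virgins by limma. Of all genes 0.0975% fell, 0.0585% rose and 0.156% were called at that adjusted threshold. An unadjusted p under 0.05 was reached by 19 of the 40, and no share of all genes is given for it. The replicate block called 5, all higher: Col5a2 (3.53, adjusted p = 0.0354), Col6a1 (3.46, adjusted p = 0.0347), Col6a2 (4.17, adjusted p = 0.0217), Col13a1 (3.94, adjusted p = 0.0273) and Col15a1 (4.0, adjusted p = 0.019), where 0.761% of all genes rose and 0.494% fell (1.26% in all). These 2 pregnant arrays also had the highest fibroblast markers, and the medians of basal, leukocyte, pericyte and endothelial markers were higher there too, as given above. Each pregnant stage had a single luminal progenitor array.

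Within stem cells 1 of 40 chains passed, Col13a1, where 0.221% of all genes fell, 0.0390% rose and 0.260% were called. Col13a1 encodes a membrane-spanning collagen of cell contacts. In stem cells it was 8.73 and 9.30 at 3 weeks, 9.44 and 8.69 at 9 weeks, 4.83 and 4.47 at day 10, 4.28 at day 16 and 8.35 in retired breeders. The 3 pregnant stem arrays lay below all 5 others. In luminal progenitors the pregnant arrays were the highest: 1.70 and 2.13, 1.75 and 3.73, 6.38, 7.42 and 5.43. Mature luminal cells had 4.18 at 3 weeks, 0.73 to 2.49 from 9 weeks to day 19 and 4.06 in retired breeders.

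The fall of Col13a1 in stem cells was -4.60 ± 0.71 (adjusted p = 0.0275), and the luminal progenitor difference was 4.16 ± 0.76 (adjusted p = 0.0678). The difference between these changes was 8.76 ± 1.05 (adjusted p = 0.042), the 1 call among all 15378 genes (0.00650%). It was lost on leaving out any 1 of 14 arrays, at 7.77 to 9.75 and adjusted p up to 0.26, and held with the replicate block, where Col15a1 joined it (5.22, adjusted p = 0.0293). The stem fall was lost on leaving out any 1 of 9 arrays (adjusted p up to 0.136). Of the 10 endothelial markers, 7 were lower in pregnant stem cells with the replicate block (1.55% of all genes), and 0 of 10 without it (median -3.06). Their median difference between the changes was 4.46. It was 3.09 for fibroblast, 2.37 for pericyte, 2.24 for basal, 1.71 for leukocyte and -0.50 for luminal markers, and 0.11 for all genes. In luminal progenitors the mean endothelial level was 7.01 and 7.28 at 3 weeks and 6.41 and 5.33 at 9 weeks. It was 7.12 at day 10, 7.97 at day 16 and 6.87 in retired breeders. The part of endothelial or other cells in the Col13a1 values was not tested. Averaged over the 5 stages, Col13a1 was lower in luminal progenitors than in the stem fraction (-2.29 ± 0.42, adjusted p = 0.0132), but the direction turned in pregnancy: the difference was -7.10 at 3 weeks, -6.32 at 9 weeks, 1.73 at day 10, 3.14 at day 16 and -2.92 in retired breeders. Mature luminal cells were below stem cells at all 5 stages, by -7.11 to -3.06 (mean -4.57 ± 0.42, adjusted p = 0.00027).

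Within mature luminal cells Col9a1 rose and 1 chain fell, where 0.592% of all genes rose, 1.66% fell and 2.25% were called. With the replicate block Col9a3 rose too (3.08, adjusted p = 0.00409, against 3.43 ± 0.92 and adjusted p = 0.0835 without it), and Col8a1 and Col8a2 fell, where 2.41% of all genes rose, 4.82% fell and 7.23% were called. The chain that fell without the block was Col6a3, the largest chain of type VI collagen. It was 8.34 at 3 weeks, 9.65 and 8.27 at 9 weeks, 5.01 and 5.85 at day 10, 3.70 at day 16, 4.95 at day 19 and 9.45 in retired breeders. The 4 pregnant arrays lay below the 4 others, and the fall was -4.39 ± 0.98 (adjusted p = 0.0397), lost when any 1 of 9 arrays was left out (adjusted p up to 0.279). In stem cells Col6a3 was 9.40 and 8.85, 9.38 and 6.57, 4.57 and 6.86, 5.88 and 7.85, a difference of -2.18 ± 0.98 (adjusted p = 0.406), and in luminal progenitors it was 9.06 and 9.34 in pregnancy against 9.01 and 6.79. Col6a1 and Col6a2, its partners, differed in mature luminal cells by -1.26 ± 0.64 (adjusted p = 0.465) and 0.63 ± 0.68 (adjusted p = 0.845).

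Virgins of 3 weeks were set against those of 9 weeks. Here 1 of 40 chains passed, Col15a1, where 0.163% of all genes were higher, 0.0130% lower and 0.176% called in all. It was 11.57 and 11.72 in 3-week stem cells against 9.00 and 8.62, 6.94 and 7.64 in luminal progenitors against 6.19 and 4.77, and 8.99 in mature luminal cells against 6.66 and 4.84. All 3-week arrays lay above the 9-week arrays of their cell type. The difference was 2.63 ± 0.44 (adjusted p = 0.0484), lost on leaving out any 1 of 15 arrays (adjusted p up to 0.467). The replicate block called 5 chains, adding Col3a1, Col5a2, Col6a2 and Col27a1, where 2.31% of all genes were higher and 0.345% lower (2.65% in all). Of the endothelial markers 1 of 10 was higher at 3 weeks and 5 with the block (median 1.91), and their part in the Col15a1 values was not tested. In retired breeders against 9-week virgins 0 of 40 chains passed by limma, where 0.00650% of all genes were called. The replicate block also gave 0 chains, where 0.0195% of all genes were called. Without the block an unadjusted p under 0.05 was reached by 12 of the chains, and no share of all genes is given for it. The comparisons with 9-week virgins share those arrays.

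Between pregnancy changes in luminal progenitors and in mature luminal cells 0 of 40 chains differed by limma, and 0 of all genes. An unadjusted p under 0.05 was reached by 12 chains, and no share of all genes is given for it. A few partner genes were called with pregnancy over the 3 cell types, where 3.77% of all genes rose and 3.36% fell. Of 14 hydroxylases and their partners 1 rose and 1 fell. There was 1 rise each among 5 chaperone and export genes, 5 genes for chain ends and 4 lysyl oxidases. Of 7 hemidesmosome genes 1 fell, and 0 of 6 collagen receptors passed. Serpinh1 rose over the 3 cell types by 1.90 ± 0.30 (adjusted p = 0.00403), Crtap by 1.39 ± 0.30 (adjusted p = 0.0173), Loxl3 by 2.79 ± 0.72 (adjusted p = 0.0378) and Pcolce2 by 3.30 ± 0.54 (adjusted p = 0.00505). Plod1, a lysyl hydroxylase, fell by 2.24 ± 0.51 (adjusted p = 0.0225) and Dst by 1.41 ± 0.22 (adjusted p = 0.00375). In mature luminal cells alone 3 of 14 hydroxylases and their partners fell, where 1.66% of all genes fell. These were Plod1 (-4.42 ± 0.86, adjusted p = 0.0218), P4ha2 (-2.76 ± 0.59, adjusted p = 0.0316) and P4ha1 (-2.25 ± 0.51, adjusted p = 0.0413), while Col9a1 rose in the same arrays.

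**Figure D5:**
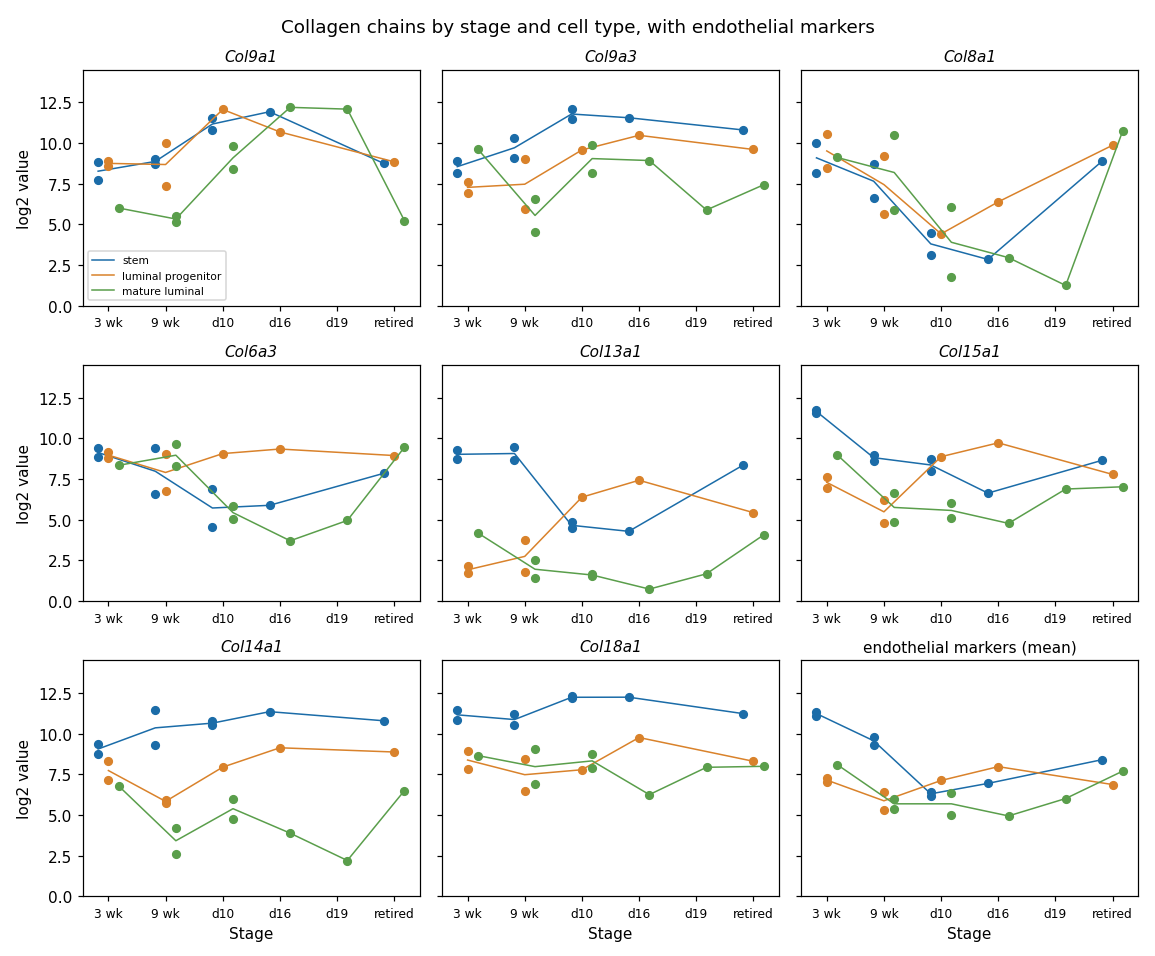
Log2 value on each array (points) and group mean (lines) by stage in 3 cell types, for Col9a1, Col9a3, Col8a1, Col6a3, Col13a1, Col15a1, Col14a1 and Col18a1, with the mean of 10 endothelial markers. Mature luminal Col9a1 reaches 12.19 and 12.08 at days 16 and 19, Col8a1 stem points of pregnancy (2.84 to 4.49) lie below the other stem points, Col13a1 is low in stem and high in luminal progenitor cells in pregnancy, and the stem endothelial level is 11.10 and 11.36 at 3 weeks and 6.18 and 6.42 at day 10.

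Of the 40 chains, 13 passed no comparison, among them Col1a2, Col2a1, Col4a4, Col4a5, Col4a6, Col5a3 and Col11a2 above. Col10a1, Col19a1 and Col22a1 lay at 2.80 to 5.73, 1.09 to 4.78 and 2.0 to 5.56 over the 23 arrays. The ranges of Col20a1 (3.81 to 8.32), Col25a1 (2.85 to 8.10) and Col8a2 (3.05 to 8.34) were wider. With the replicate block Col20a1 fell in pregnancy (-1.89), and Col25a1 (-1.47) and Col8a2 (-1.08) were lower than in stem cells in mature luminal and luminal progenitor cells. Col8a2, the partner chain of Col8a1, was 5.38 and 7.32 in 9-week mature luminal cells, 3.63 and 4.99 at day 10, 3.43 at day 16, 3.05 at day 19 and 8.34 in retired breeders. Its difference there (-2.48 ± 0.80, adjusted p = 0.159) passed with the replicate block (-2.73, adjusted p = 0.012).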

How the data were processed

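Values were the authors' deposited log2 expression values of 45101 Affymetrix probe sets on 23 arrays. The labels' protocols state that glands were digested, cell types purified, mRNA isolated and biotinylated cRNA made from it by an Affymetrix protocol. The normalization method: not given in the sources used here. Gene names came from the platform annotation, and 34945 probe sets had a single symbol. All 42 collagen symbols were unchanged in RefSeq's gene table. The collagen members, marker lists and partner lists were chosen with earlier results of these data known. Every chain is accounted for. Values by array or their ranges by cell type are given for the fibrillar, type IV and Col17a1 chains and for others that passed a comparison. Of a partner list, counts and up to 4 genes with the smallest p are named.

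One mean per group of stage and cell type was fitted with limma 3.58.1 in R 4.3.3 (lmFit, eBayes with intensity trend, 7 residual and 4.74 prior degrees of freedom), so groups of 1 array borrow the spread of the others. Contrasts were two-sided, with Benjamini-Hochberg adjustment over the 15378 genes kept. The fit was tested on simulated data. The number of arrays limits the precision. No 2 arrays were alike: at least 98.5% of probe sets differed between any 2. Same-numbered arrays of different groups deviated together in 21 of 21 pairs of groups (correlation 0.303 to 0.682, median 0.47). They thus share a deviation, whose source the labels do not name. The main fit leaves it out, and the replicate block models it. The labels give no basis for setting the 8 unnumbered arrays, which include all day 16 and retired breeder arrays, with replicate 2. Alternatives were the replicate block, fits within numbered sets, quantile normalization, filters, the mean of probe sets, the samples fitted, the intensity trend and leaving out each array. Leaving out arrays that stand apart in fibroblast markers or in the Gapdh 3′ excess was added after the data were seen.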

Additional observations from a re-analysis of the deposited data

Results flagged for a closer look

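The difference between the pregnancy change in luminal progenitors and that in stem cells was 8.76 on the log2 scale for Col13a1, by a test of the interaction (limma, SE 1.05, adjusted p = 0.042). The luminal progenitor values rested on 1 array each at days 10 and 16.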

How the results depend on the processing

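Of 51 calls of a chain in a comparison, followed through 1775 other fits, 1539 kept the call, 236 lost it in the same direction and 0 turned direction. The 2 counts of chains lower in luminal progenitors (12) and mature luminal cells (25) than in stem cells fell to 6 and 16 within arrays titled replicate 1, which are 8 arrays. Leaving out 1 array gave 9 to 13 and 21 to 27. Mature luminal against luminal progenitor cells (2) gave 0 with the replicate block over groups of 2 arrays and 11 over all arrays, 0 within replicate 1, 8 after quantile normalization, 5 with low values set up to their array median, 4 with the mean of probe sets, 0 with only the groups compared, 0 without both pregnant luminal progenitor arrays, 10 without the 2 arrays of largest Gapdh 3′ excess, and 0 to 10 without 1 array. Pregnancy over 3 cell types (7) gave 14 with the replicate block over all arrays, 3 within the other arrays, 4 without the filter, 4 with the mean of probe sets, 3 with only the groups compared, 4 without the intensity trend, 4 without both pregnant luminal progenitor arrays, and 3 to 10 without 1 array. Virgins of 3 against 9 weeks (1) gave 0 and 5 with the replicate block, 3 with low values raised, 0 within either numbered set, after quantile normalization, without the filter, with only the groups compared, without the trend and without the Gapdh arrays, and 0 to 1 without 1 array. Pregnancy within stem cells (1) gave 2 with either replicate block, 0 with only the groups compared and 0 to 1 without 1 array. Within luminal progenitors (0) it gave 5 with the block, 1 after quantile normalization, 5 with low values raised, 2 with the mean of probe sets and 0 to 1 without 1 array. Within mature luminal cells (2) it gave 5 with the block, 1 after quantile normalization, 1 with only the groups compared, 1 without the trend and 0 to 3 without 1 array. The luminal progenitor minus stem interaction (1) gave 2 with the block, 0 with only the groups compared and 0 to 1 without 1 array. Retired breeders and the luminal progenitor minus mature luminal interaction stayed at 0 without 1 array and with the block over all arrays. The cause of these changes was not tested. Settings that dropped groups used only the stages left to them. With the block over groups of 2 arrays, mature luminal and luminal progenitor cells were compared at 9 weeks alone, and pregnancy was day 10 alone. Fits within a numbered set used a stage term plus a cell type term. Counts from these settings are thus for other contrasts than the main ones. The block over groups of 2 arrays and the fit within replicate 1 gave no value for retired breeders, pregnancy within luminal progenitors or the interactions, and fits within either set gave none within a single cell type. After quantile normalization the all-gene median went from -0.04 to 0.08 in luminal progenitors against stem cells, from 0.11 to -0.06 in 3-week against 9-week virgins and from 0.32 to 0.18 in the interaction with mature luminal cells. 9 of 16 groups had 1 array, so their spread is assumed.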
